A study of Mus musculus with 9 samples.

Results

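The binding of Stat5b in mouse CD4+ T cells at 13 h of Th2 differentiation was mapped by ChIP-seq, the sequencing of DNA that is precipitated with an antibody from chromatin, with an IgG immunoprecipitate of the same stage as the control. The places described are those of the peak list deposited by the authors for this Stat5b library, in the mm8 mouse build. That list held 13268 peaks, of which 2 on the mitochondrial chromosome were left out, and peaks that overlapped were joined, which left 12769 nuclear peaks. For comparison, all 6 peak lists of the series merged into 43766 nuclear regions. The series also has Stat5a libraries, and it has further stages of Th2 differentiation (8 h and 2 rounds), with an IgG control for each stage, 9 libraries in all. Each antibody and stage has 1 library, so a difference here is a difference between libraries, with no replicate spread to set it against. The labels give the cells only as CD4+ T cells, and the sources used here do not give the strain, age and genotype of the mice or the culture. No gene is named at a peak, because the gene table at hand is in another build (GRCm38.p6) and positions were not converted.

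Stat5b and its close relative Stat5a are latent transcription factors that are phosphorylated by Janus kinases when a cytokine receptor is engaged, pair up, and move to the nucleus to bind DNA. In T cells the IL-2 receptor is a main source of this signal. In CD4+ T cells Stat5 activity is known to prime the cells for the Th2 fate, in which IL-4, IL-5 and IL-13 are made, partly through the receptor for IL-4. The series as a whole asks how IL-2 signalling prepares cells for that fate, and an IgG immunoprecipitate shows how many reads a place collects when no factor is targeted.

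The Stat5b library at 13 h held 9036070 mapped reads and the IgG library 7525521. Reads that began at a different position or on a different strand, called distinct starts here, numbered 5670095 (62.7% of reads) in Stat5b and 5160361 (68.6%) in IgG. Levels are given as RPM (reads for every 1000000 of the library) or as distinct-start RPM (distinct starts for every 1000000 of them). A read was counted in a peak when its 5' end fell in it. All intervals cover counting error only, at 95%, since reads carry no molecular identifiers and repeats of 1 molecule cannot be recognised. The peaks were made from the same Stat5b reads that are counted in them, so the excess of Stat5b over IgG at 13 h is a description and no test of binding.

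The peaks together covered 5.22 Mb and held 4.67% of Stat5b reads (Wilson interval 4.65 to 4.68) against 0.825% of IgG reads (0.818 to 0.831). The ratio of these shares was 5.66 (exact conditional interval 5.61 to 5.71). On distinct starts the shares were 4.19% in Stat5b and 0.592% in IgG, and the ratio was 7.07 (6.99 to 7.16). Summed over all peaks, repeated starts thus made up more of the IgG reads, where distinct starts were 49.2% of reads, than of the Stat5b reads, where they were 56.3%. The 158 peaks with 10 or more IgG distinct starts had this order too, at 22.2% in IgG and 30.7% in Stat5b. It was reversed in the 6020 peaks with 1 to 2 IgG distinct starts, at 67.4% in IgG and 59.9% in Stat5b. The 3916 peaks with 3 to 9 were also reversed, at 65.7% and 57.9%. The median peak held 22 Stat5b reads, or 13 distinct starts, and 2 IgG reads. The peaks with the fewest Stat5b distinct starts, 73 of them, held 6 each. IgG had no read in 2675 peaks (20.9%), which at a floor of 3 counts allows up to 0.399 RPM in each.

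A peak was called higher when the exact conditional interval of its Stat5b to IgG ratio lay wholly above 2. By this rule 7562 of 12769 peaks (59.2%) were higher on all reads, and 4316 (33.8%) on distinct starts. Over the merged regions of all 6 lists with a read in either library, the same rule called 18.7% on all reads and 9.67% on distinct starts, and over 500 bp tiles of the nuclear genome with a read it called 0.403% and 0.101%. The interval lay wholly above 1 in 11750 peaks (92.0%) on all reads and in 10317 (80.8%) on distinct starts. An interval wholly below 0.5 was found in 0 peaks (0.0%) on either count, and one wholly below 1 in 12 peaks (0.094%) on all reads. Of the 8453 peaks not called higher on distinct starts, 3378 held fewer than 10 Stat5b distinct starts.

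Repeated starts changed the calls more outside the peaks than in them. On all reads, 16113 tiles were called higher and 14424 (0.361%) were called lower by the mirrored rule (interval wholly below 0.5), and 46.8% of the higher ones touched a peak. On distinct starts 4025 tiles were higher and 23 lower (0.000575%), and 3862 of the 4025 (96.0%) touched a peak. Only 52 tiles called higher on distinct starts lay outside every list of the series. For this reason the levels of single peaks are given below on distinct starts.

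**Figure D1:**
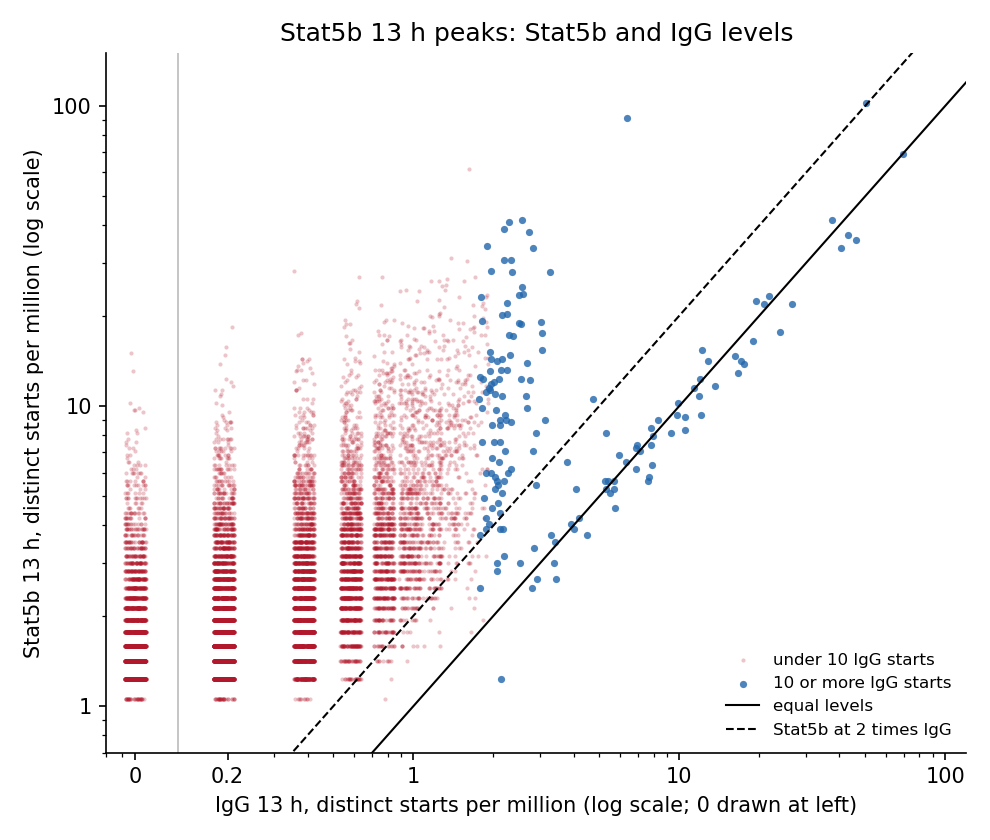
Distinct-start RPM of the 12769 peaks in Stat5b (vertical axis, log scale) and IgG (horizontal axis, log scale, with peaks at 0 drawn at the left and points spread slightly sideways), at 13 h. Nearly all peaks lie above the line of equal levels, while many of the 158 peaks with 10 or more IgG starts (larger blue points) run along that line up to the highest levels.

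The peaks fell into a large body with few IgG starts and a small set with many. Peaks with 10 or more IgG distinct starts numbered 158, and their summed ratio of Stat5b to IgG was 2.09 (2.02 to 2.16) on distinct starts. On all reads it was 1.38 (1.36 to 1.40). This set was mixed: 57 of the 158 (36.1%) were called higher on distinct starts, beside 33.8% of the whole list. In 42 peaks the IgG level in distinct-start RPM was at or above the Stat5b level. The 20 peaks with the most IgG reads held 4.93% of the Stat5b reads in peaks and 28.5% of the IgG reads in peaks. Without these 20 peaks, which were singled out after the data were seen, the ratio of shares on all reads was 7.52 (7.45 to 7.598) in place of 5.66, and 7560 peaks were called higher.

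The peak with the most IgG reads lay on chromosome 2 from 98465646 to 98466140, with 3531 Stat5b reads against 3437 IgG reads. These came from only 202 distinct starts in Stat5b and 219 in IgG, and the ratio on distinct starts was 0.839 (0.690 to 1.02). Its neighbour from 98464401 to 98465001 held 191 Stat5b and 194 IgG distinct starts. The peak on chromosome 14 from 39187416 to 39187914 held 93 and 98, and that on chromosome 9 from 24292345 to 24292625 held 73 and 80, for Stat5b and IgG in that order. On chromosome 11 from 108827662 to 108828208 there were 393 Stat5b and 388 IgG distinct starts, a ratio of 0.922 (0.799 to 1.06). At none of these 5 places did the 2 libraries differ beyond counting error on distinct starts. On all reads the interval of the ratio lay wholly below 1 in both chromosome 2 peaks, at 0.856 (0.816 to 0.897) and 0.886 (0.831 to 0.945). It did so in the chromosome 9 peak too, at 0.755 (0.704 to 0.809). These intervals take each repeat of a start as a separate read, so they are too narrow where repeats are copies of 1 molecule. The chromosome 9 peak held 63 to 85 distinct starts in every library, at 104 to 260 RPM. Like numbers of distinct starts there thus do not show that the libraries are alike. All 5 were also high in the other IgG libraries. The first stood at 49.8 distinct-start RPM in IgG at 8 h (213 starts) and 48.2 after 2 rounds (197), beside 42.4 at 13 h (219).

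Around a bound factor, a fragment can be read from either of its ends, so plus-strand 5' ends gather upstream of the site and minus-strand 5' ends downstream. Stat5b starts showed this order. Averaged over 12765 peaks, plus-strand starts were densest 65 bp upstream of the peak centre, at 5.98 distinct-start RPM per kb. Minus-strand starts were densest 58 bp downstream, at 5.91. The 4 peaks in which 1 start held over 50% of at least 20 reads were left out here. The level within 100 bp of the centre was 7.13 times (plus strand) and 7.33 times (minus strand) that beyond 800 bp. In IgG the highest levels were 0.714 on the plus strand and 0.730 on the minus strand, at 11 bp upstream and 2 bp downstream of the centre, and the level at the centre was 1.89 times that beyond 800 bp on either strand.

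**Figure D2:**
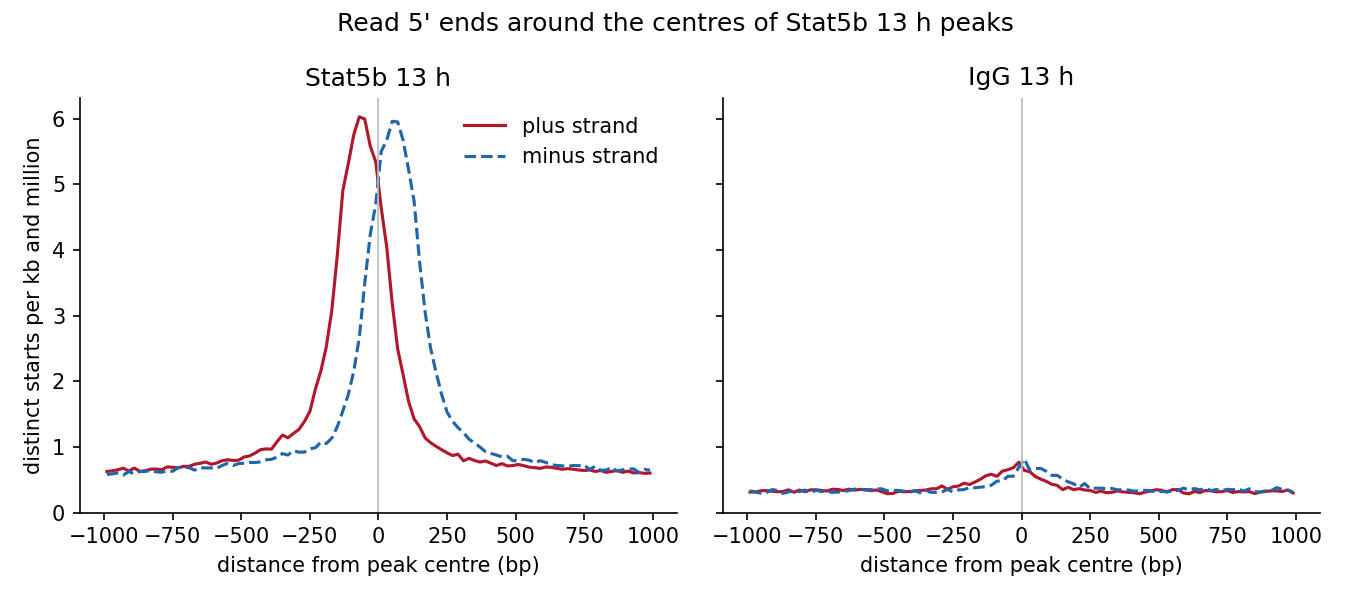
Distinct-start RPM per kb (vertical axis) by distance from the peak centre in bp (horizontal axis), plus strand solid and minus strand dashed. Values are in 20 bp bins over 12765 peaks, without the 4 in which 1 start held over 50% of at least 20 reads, with Stat5b left and IgG right. The Stat5b strands form separate maxima near 6 on either side of the centre, while IgG stays below 1 with a small rise at the centre.

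The lag at which plus-strand and minus-strand starts matched best, within 1000 bp of the centres, was 98 bp in Stat5b and 25 bp, the length of a read, in IgG. On all reads, repeats included, the contrast was lost, with 26 bp in Stat5b and 23 bp in IgG. On distinct starts the Stat5b lag was 98, 99 and 97 bp in the strongest, middle and weakest class of the list by Stat5b distinct starts (4256, 4254 and 4255 peaks, without the 4 peaks in which 1 start held over 50% of at least 20 reads). By width the picture was less even: in the narrowest 25% of peaks the Stat5b lag was 26 bp, or 96 bp with each peak given equal weight, against 86, 98 and 99 bp in the wider classes. The IgG lag rested on the few peaks rich in IgG starts: with each peak given equal weight it was 120 bp, and without the 158 peaks with 10 or more IgG starts it was 110 bp, both added after the data were seen. In those 158 peaks the lag of Stat5b itself was 25 bp. It was also 25 bp in the 2452 peaks whose interval on distinct starts was not above 1, against 99 bp in the 4316 called higher.

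The offset was also taken in single peaks. Where both strands had at least 10 distinct starts, the median minus-strand position lay downstream of the median plus-strand position by a median of 120 bp in Stat5b (2703 peaks, quartiles 82 and 154.5) and 26 bp in IgG (48 peaks). The offset was over 50 bp in 86.6% of these Stat5b peaks and in 16.7% of these IgG peaks. The values come from different sets of peaks. All 48 IgG peaks had 10 or more IgG starts, and 45 of them had an interval on distinct starts not above 1. Stat5b had an offset in 54 peaks with such an interval. Its median there was 25.75 bp, and 20.4% were over 50 bp. In 137 of the 158 peaks rich in IgG starts the median Stat5b offset was 93.5 bp, and 62.8% of them were over 50 bp, against a lag of 25 bp pooled over the 158 peaks. All 2703 belonged to the strongest class, so single weak peaks could not be assessed in this way.

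The libraries that did not make the list give a view of these places that the choice of peaks did not use. Set against the IgG library of its own stage, the share of distinct starts in these peaks was higher by a factor of 2.61 for Stat5b at 8 h (2.57 to 2.64) and 8.81 for Stat5b after 2 rounds (8.71 to 8.91). For Stat5a the factor was 4.69 at 8 h, 4.09 at 13 h and 4.11 after 2 rounds. All 5 ratios lay above 1 beyond counting error, and that of Stat5b after 2 rounds was above the 7.07 of the Stat5b library from which the peaks were made. Stat5a and Stat5b at 13 h share the IgG library, so their ratios are not independent.

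Called one by one on distinct starts (interval wholly above 2), 579 of the 12769 peaks (4.53%) were higher than IgG in Stat5b at 8 h and 5362 (42.0%) in Stat5b after 2 rounds. In Stat5a the numbers were 1768 (13.8%) at 8 h, 1488 (11.7%) at 13 h and 1916 (15.0%) after 2 rounds. On all reads the numbers were 1044 (8.18%) and 6804 (53.3%) for Stat5b at 8 h and after 2 rounds, and 3101 (24.3%), 2947 (23.1%) and 3078 (24.1%) for Stat5a at 8 h, 13 h and 2 rounds. For these pairs of libraries the rule was not run over the merged regions or genome tiles. How far their shares exceed those elsewhere in the genome is thus not known. The number called also depends on depth, which differed between libraries. Distinct starts numbered 5085284 and 4931697 in Stat5b at 8 h and after 2 rounds. In Stat5a they numbered 2050801, 5220691 and 4050353 at 8 h, 13 h and 2 rounds. Compared in the same way, IgG at 13 h was higher than IgG at 8 h in 0 peaks (0.0%), or 14 on all reads (0.11%), and higher than IgG after 2 rounds in 1 (0.00783%), or 15 on all reads (0.117%). The IgG library of 13 h was also somewhat low at these peaks, at 0.896 times the share of IgG at 8 h (0.882 to 0.911) and 0.771 times that of IgG after 2 rounds (0.759 to 0.783). The sources used here do not say whether the peaks were called against this IgG library.

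**Figure D3:**
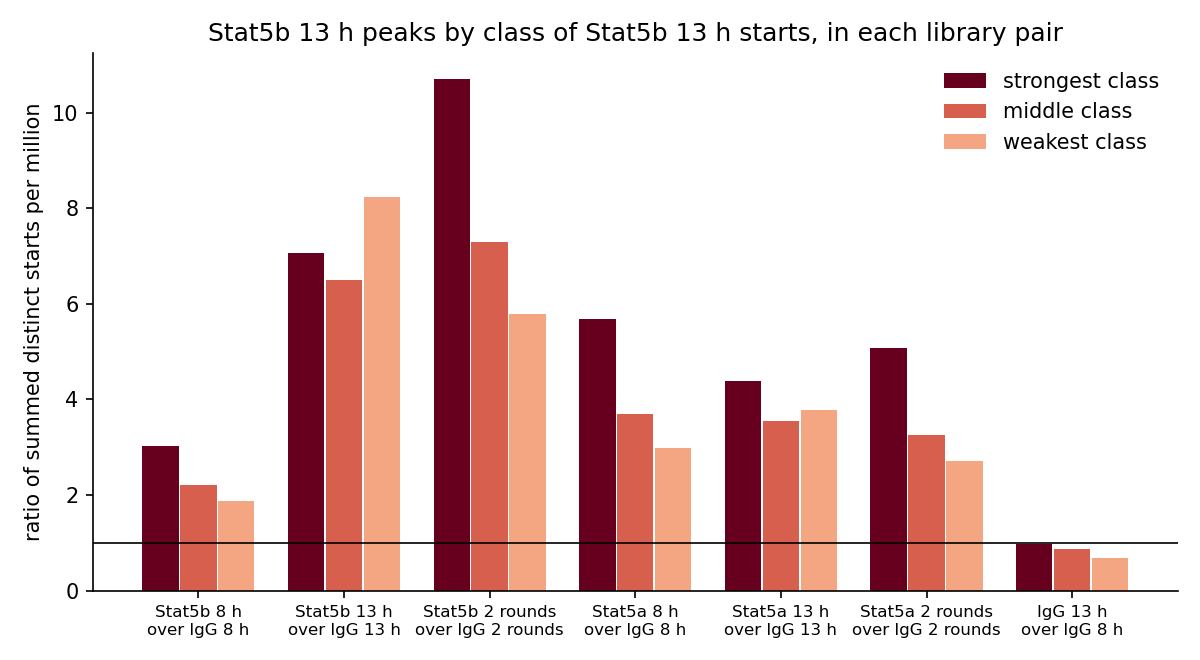
Ratio of summed distinct-start RPM to that of the stage's IgG library (vertical axis), for each ChIP library and, at the right, for IgG at 13 h over IgG at 8 h, in the strongest, middle and weakest class of peaks by Stat5b distinct starts at 13 h. The ratio of Stat5b after 2 rounds steps down through the classes, at 10.7, 7.31 and 5.79, and the weakest class remains above 1 in all 6 ChIP libraries.

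Peaks that were weak in Stat5b at 13 h were also weaker in most of the other libraries, but stayed above IgG. The strongest class (4257 peaks, 17 or more distinct starts) stood at 10.7 times IgG in Stat5b after 2 rounds, the middle class (4256 peaks) at 7.31 and the weakest (4256 peaks, 6 to 10 distinct starts) at 5.79 (5.63 to 5.95). For Stat5b at 8 h the ratios in the same order were 3.03, 2.21 and 1.88 (1.81 to 1.94), and for Stat5a at 8 h 5.69, 3.70 and 2.98. Stat5a at 13 h did not follow this order, at 4.38, 3.55 and 3.78. In the weakest class IgG at 13 h stood at 0.675 times IgG at 8 h (0.647 to 0.704), against 0.979 in the strongest class. The ratio of Stat5b to IgG at 13 h, which the choice of classes used, was 7.07, 6.50 and 8.24 in that order, and the part of the low IgG level in it was not tested.

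The same places recurred in the authors' other lists to different degrees. Of the 12769 peaks, 76.7% overlapped a Stat5b peak after 2 rounds by at least 1 bp, which were 29.3% of that longer list, and 16.6% overlapped a Stat5b peak at 8 h, 68.8% of that shorter list. With Stat5a peaks the shares were 27.5% at 8 h, 42.4% at 13 h and 33.3% after 2 rounds, or 65.6%, 39.5% and 44.7% of those lists. Where each peak had to cover 50% of the other, the share was 42.0% for Stat5b after 2 rounds and only 0.775% for Stat5b at 8 h, and for Stat5a 21.2% at 8 h, 33.4% at 13 h and 28.3% after 2 rounds. Peaks in all 5 other lists numbered 1149 (8.998%) and had a median of 46 Stat5b distinct starts and a width of 602 bp. Peaks in no other list numbered 2103 (16.5%), with a median of 9 distinct starts and a width of 289 bp.

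The 2103 peaks found in no other list were above IgG in each of 3 other libraries examined. Summed over them, the ratio to IgG on distinct starts was 1.83 in Stat5b at 8 h, 2.32 in Stat5b after 2 rounds and 2.53 in Stat5a at 13 h. Their strand lag in Stat5b at 13 h was 97 bp. In the 1149 peaks of all lists the same ratios were 4.91, 17.4 and 6.58. Peaks were assigned to these sets by calls in those same libraries, so the contrast between the sets is fixed by the choice and shows nothing further.

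The 20 peaks with the most Stat5b above IgG, in distinct-start RPM, lay on 10 chromosomes, and all 20 were also in the 5 other lists. They ranged from 26.5 to 102 distinct-start RPM in Stat5b, against 0.388 to 51.5 in IgG, and their ratios ran from 1.99 to 72.8 with a median of 16.2. In 19 of the 20 the interval lay wholly above 2. They held 1.90% of the Stat5b distinct starts in peaks, the 100 strongest peaks 6.15% and the 1000 strongest 27.6%, so the starts were spread over many places.

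**Figure D4:**
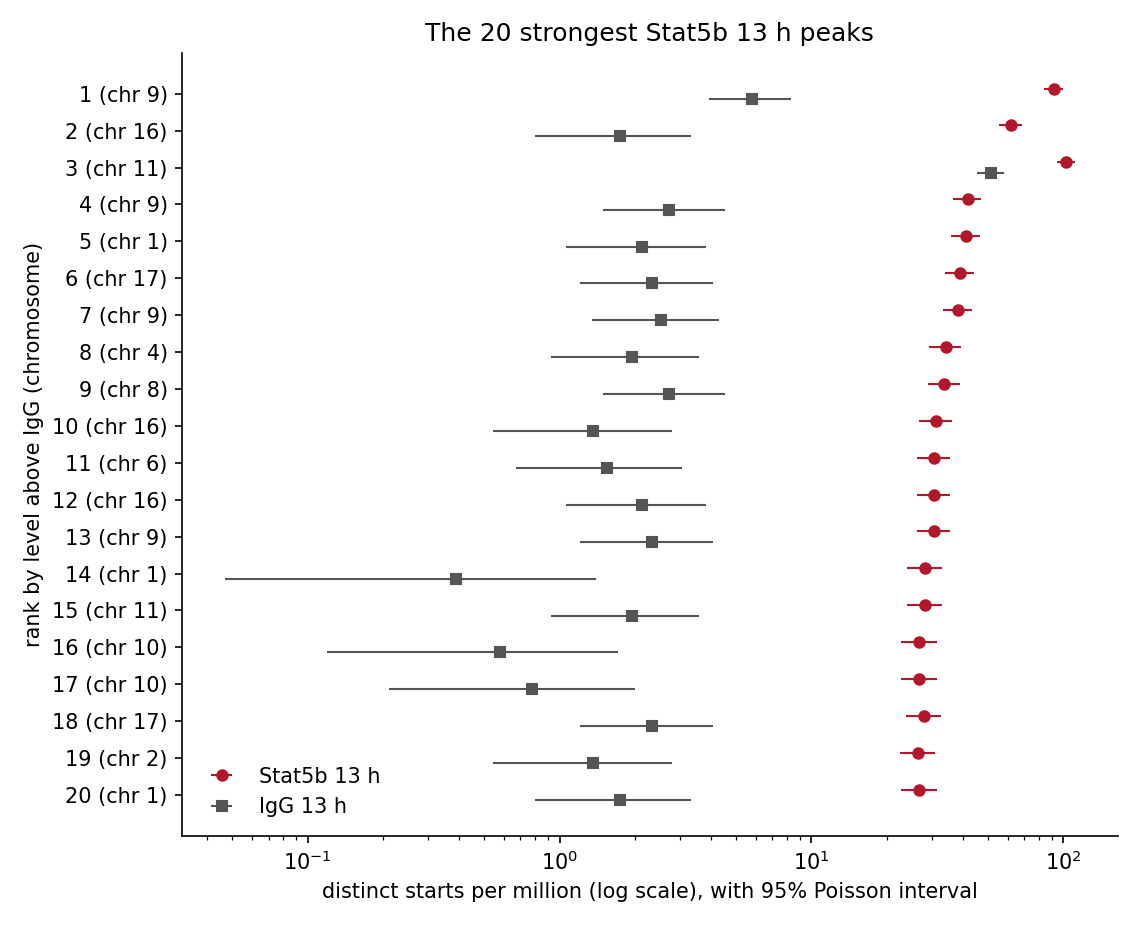
Distinct-start RPM (log scale) of the 20 peaks with the most Stat5b above IgG, in Stat5b (red circles) and IgG (grey squares) at 13 h, with exact 95% Poisson intervals of the counts. The intervals do not overlap in any of the 20, and the peak ranked 3, on chromosome 11, has the highest IgG level of the 20, 51.5.

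The strongest peak lay on chromosome 9 from 107153410 to 107155800, at 91.4 distinct-start RPM in Stat5b (518 starts) against 5.81 in IgG (30 starts), a ratio of 15.7 (10.9 to 23.5). Further peaks of the first 20 stood close by on chromosome 9. That from 107165270 to 107167581 had 41.6 in Stat5b against 2.71 in IgG, that from 107170765 to 107171717 had 30.7 against 2.33, and that from 107192280 to 107194394 had 38.1 against 2.52. These 4 peaks were also in every other list of the series. In the peak from 107192280, Stat5b stood at 19.9, 38.1 and 68.9 distinct-start RPM at 8 h, 13 h and 2 rounds, Stat5a at 35.6, 28.3 and 31.6, and IgG at 3.51, 2.52 and 4.65.

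The peak ranked 2, on chromosome 16 from 23902971 to 23904598, had 61.7 distinct-start RPM in Stat5b against 1.74 in IgG, a ratio of 35.4 (18.4 to 78.0). Chromosome 16 held 2 more of the first 20, from 10685622 to 10686395 with 31.2 in Stat5b against 1.36 in IgG, and from 10552552 to 10553379 with 30.7 against 2.13. Both were higher in Stat5b after 2 rounds than at 13 h, at 72.0 and 81.9 distinct-start RPM, with IgG then at 0.735 and 1.47. Stat5a at 8 h, 13 h and 2 rounds stood at 20.5, 21.6 and 24.4 in the peak from 10685622, and at 21.5, 22.6 and 41.7 in that from 10552552.

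The peak ranked 3, on chromosome 11 from 3091075 to 3094543, was the widest of the list, at 3469 bp, and stood apart in its IgG level. It had 102 distinct-start RPM in Stat5b against 51.5 in IgG, a ratio of 1.99 (1.72 to 2.31), and so was the only peak of the 20 not called higher on distinct starts. On all reads its ratio was 2.39 (2.14 to 2.68), which was called. IgG there stood at 50.99 distinct-start RPM at 8 h and 47.3 after 2 rounds, so the high IgG level was seen in each of the 3 IgG libraries. The median strand offset of its Stat5b starts was 135.5 bp, against 25 to 50.5 bp at the 5 peaks with the most IgG reads. Among the 20 strongest peaks this offset ran from -4 to 206.5 bp, with a median of 134 bp. Low offsets also occurred there at peaks with clear ratios to IgG. The peak on chromosome 9 from 107165270 had -4 bp at a ratio of 15.3. That on chromosome 8 from 84398486 had 34 bp at 12.4.

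On chromosome 1, the peak from 60990281 to 60991505 had 40.9 distinct-start RPM in Stat5b against 2.13 in IgG (ratio 19.2, 10.5 to 39.0). A pair on the same chromosome, from 108434331 to 108435183 and from 108439787 to 108441449, had 28.2 and 26.8 in Stat5b against 0.388 and 1.74 in IgG. The first of the pair, with 160 Stat5b and 2 IgG starts, had the highest ratio of the 20, 72.8, but 2 IgG starts leave its interval at 19.8 to 606. At 8 h, 13 h and 2 rounds it stood at 14.6, 28.2 and 51.5 in Stat5b, at 34.6, 23.8 and 23.9 in Stat5a, and at 0.702, 0.388 and 0.980 in IgG. Stat5a was thus above Stat5b at 8 h and below it at the later stages in this peak. The whole list had the same order. Its median peak stood at 0.983, 2.29 and 3.24 distinct-start RPM in Stat5b and at 1.46, 1.34 and 1.48 in Stat5a, over the same stages.

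On chromosome 17, the peak from 34813185 to 34813816 was only 632 bp wide and had 38.8 distinct-start RPM in Stat5b against 2.33 in IgG, and that from 29122097 to 29123058 had 27.9 against 2.33. On chromosome 10, the peaks from 94694374 to 94695510 and from 94846205 to 94847144 each had 26.8 in Stat5b, against 0.581 and 0.775 in IgG. The peak at 94846205 had 6.88, 26.8 and 88.0 in Stat5b at 8 h, 13 h and 2 rounds. The peak on chromosome 4 from 32619628 to 32620718 had 34.0 in Stat5b against 1.94 in IgG, and that on chromosome 8 from 84398486 to 84399472 had 33.7 against 2.71.

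In the chromosome 8 peak, Stat5b stood at 18.3, 33.7 and 35.5 distinct-start RPM at 8 h, 13 h and 2 rounds, so its level after 2 rounds was close to that at 13 h. The peak on chromosome 2 from 11572822 to 11573815 had 26.5 in Stat5b against 1.36 in IgG at 13 h, and Stat5b after 2 rounds stood at 26.4, again close to 13 h. The remaining peaks of the 20 lay on chromosome 6 from 15743087 to 15744083, with 30.5 in Stat5b against 1.55 in IgG, and on chromosome 11 from 117784980 to 117786059, with 28.2 against 1.94. The chromosome 6 peak had 1 start with over 50% of its IgG reads (21 reads from 8 distinct starts). Its ratio was 12.9 on all reads and 19.7 (9.77 to 46.3) on distinct starts.

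Among peaks with at least 30 Stat5b starts, the 5 highest ratios on distinct starts were all reached with 1 or 2 IgG starts. Peaks with 0 IgG starts entered this ranking at their bound, with IgG set at the floor of 3 counts, so their ratios may be higher than those named. The highest was on chromosome 16 from 55507918 to 55508412, with 104 Stat5b starts and 1 IgG start, a ratio of 94.7 (16.6 to 3774). The lower ends of the 5 intervals lay between 12.4 and 19.8. The chromosome 16 peak was the sole member of its group, with no other peak of the list within 10 kb, and stood at 10.2, 18.3 and 28.6 distinct-start RPM in Stat5b and 16.1, 13.6 and 19.01 in Stat5a at 8 h, 13 h and 2 rounds.

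Peak width went with the number of starts. Joined peaks were 111 to 3469 bp wide, with a median of 373 bp and quartiles of 292 and 478 bp. Across the 12769 peaks the Spearman correlation of width with Stat5b distinct starts was 0.874, and with IgG distinct starts 0.533; a wider window collects more starts of any library, and the widths came from the authors' calling on the Stat5b reads. Starts per kb also differed, with a median of 32.1 Stat5b distinct starts per kb in the narrowest 25% of peaks and 46.3 in the widest 25%. The share of peaks called higher on distinct starts was 6.04%, 21.3%, 36.9% and 71.0% in the 4 equal width classes from narrowest to widest. The summed ratio to IgG on distinct starts differed far less, at 6.44, 6.59, 6.66 and 7.66 in the same order. Median Stat5b distinct starts were 8, 11, 15 and 28, and every peak called higher held at least 10.

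Peaks were unevenly spaced along the chromosomes. The gap to the next peak had a median of 31683 bp and a mean of 199232 bp, and 30.5% of gaps were under 10 kb. Grouping peaks with gaps under 10 kb gave 8880 groups, of which 6551 were single peaks, 2163 held 2 to 4 peaks and 166 held 5 or more. Peaks in groups of 5 or more had a median of 18 Stat5b distinct starts and 2 IgG starts, and single peaks 12 and 2. Their summed ratios to IgG on distinct starts were 7.98 and 6.29. Neighbours less than 10 kb apart had weakly related levels, with a Spearman correlation of their Stat5b starts of 0.169 over 3889 pairs, against 0.0131 over the 3602 pairs 100 kb or more apart.

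The group with the most peaks lay on chromosome 2 from 11534560 to 11581322, with 17 peaks in 46.8 kb. Together they had 178 distinct-start RPM in Stat5b against 13.6 in IgG, a ratio of 13.1 (10.3 to 17.0), and 14 of the 17 were called higher on distinct starts. Its strongest peak held 14.8% of its Stat5b starts, so no single place dominated the group. The group on chromosome 16 from 10660987 to 10702285 held 16 peaks, with 78.7 in Stat5b against 7.17 in IgG and 39.7% of starts in 1 peak. That on chromosome 17 from 34798104 to 34850249 held 15 peaks, with 77.8 against 7.95, and here the peak from 34813185 held 49.9% of the Stat5b starts.

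Chromosome 11 had 2 groups of 14 peaks. That from 98945415 to 98996758 stood at 57.7 distinct-start RPM in Stat5b against 6.39 in IgG, and that from 11586680 to 11637269 at 51.7 against 5.23. In the group from 98945415, 3 of the 14 peaks were called higher on distinct starts, and in that from 11586680, 7 of 14, so many of the peaks of these groups were weak one by one. The group with the most Stat5b above IgG was that of 7 peaks on chromosome 9 from 107152367 to 107171717, with 184 in Stat5b against 14.5 in IgG, a ratio of 12.7 (10.01 to 16.2). Groups of 7 and 8 peaks on chromosome 1, from 108416413 to 108448595 and from 60966625 to 60999488, stood at 88.5 and 86.1 in Stat5b against 5.62 and 6.201 in IgG. In each of these 3 groups, 6 of the peaks were called higher on distinct starts.

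Among chromosomes 1 to 19 and X, peaks were densest on chromosome 11, with 8.52 per Mb (1038 peaks), and sparsest on X, with 1.18 per Mb (196 peaks). The Y chromosome, with reads over only 2.73 Mb, had 0 peaks. The other autosomes lay between 3.53 per Mb (chromosome 14) and 6.05 (chromosome 19), and the median autosome had 4.90. Over chromosomes 1 to 19 and X, peaks per Mb had a Spearman correlation of 0.690 with protein-coding genes per Mb (counts of genes from the GRCm38.p6 table), given as a description of 20 chromosomes of the same libraries. Without X it was 0.649.

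**Figure D5:**
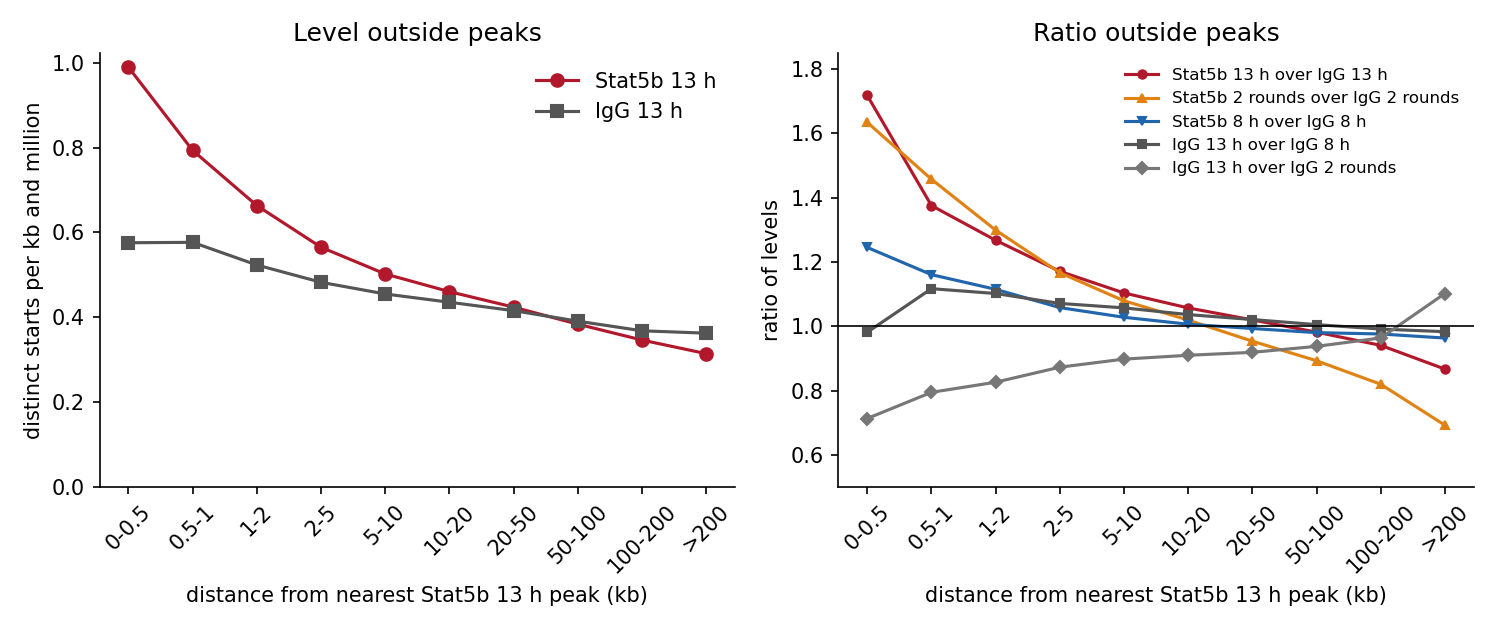
Left, distinct-start RPM per kb (vertical axis) of Stat5b and IgG at 13 h outside all 6 peak lists, by distance from the nearest Stat5b 13 h peak in kb (horizontal axis). Right, ratios of libraries over the same distances: Stat5b at 13 h over IgG at 13 h steps down from 1.72 next to the peaks to 0.867 beyond 200 kb, IgG at 13 h over IgG at 8 h stays between 0.981 and 1.12, and IgG at 13 h over IgG after 2 rounds climbs with distance, from 0.713 next to the peaks to 1.10 beyond 200 kb.

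Beyond the peaks, Stat5b stayed above IgG for several kb. In sequence outside every list, the Stat5b level within 500 bp of a peak was 0.989 distinct-start RPM per kb, against 0.576 in IgG, a ratio of 1.72 (1.69 to 1.74). The ratio was 1.38 from 500 to 1000 bp away, 1.17 from 2000 to 5000 bp and 1.06 from 10000 to 20000 bp. It was 0.867 (0.865 to 0.868) beyond 200 kb, with each library scaled to its own total. IgG itself was also denser near the peaks, at 0.576 within 500 bp against 0.363 beyond 200 kb. Ratios between IgG libraries also changed with distance. IgG at 13 h over IgG at 8 h stood at 0.981 within 500 bp, at 1.12 from 500 to 1000 bp and then stepped down to 0.983 beyond 200 kb. IgG at 13 h over IgG after 2 rounds went the other way, at 0.713 within 500 bp and 1.10 beyond 200 kb. The part of such differences between control libraries in the Stat5b slope was not tested. For Stat5b at 8 h the ratio near these peaks was 1.25, and after 2 rounds 1.63.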

How the data were processed

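The authors deposited 1 file of mapped reads for each library (1 line a read, with its position in bp, mismatch class and strand) and 1 file of peaks for each ChIP library (positions in bp, without height or score). The names of the deposited files give the mm8 build. How reads were aligned and how peaks were called, against IgG or not, is not given in the sources used here. Stat5b reads at 13 h were 25 bp long, and 49.7% of IgG reads at 13 h were 24 bp long, whose 5' ends were moved 1 bp upstream.

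Overlapping peaks were joined and reads were counted by their 5' end. Ratios of RPM carry exact conditional (Clopper-Pearson) intervals and shares carry Wilson intervals. A peak with 0 IgG reads was set at a floor of 3 counts where a bound was needed. No p-value was computed, since each group has 1 library. Strand lags were taken from pairs of plus and minus distinct starts, with counts smoothed over 21 bp. Profile maxima were read after smoothing over 51 bp. Intervals and lags were tested on simulated data. Named peaks are the 20 with the most distinct-start RPM above IgG, the 5 with the highest ratio among those with at least 30 starts, the 5 with the most IgG reads and the 5 widest. Named groups are the 5 with the most peaks and the 5 with the most distinct-start RPM above IgG. The peaks, comparisons and rules were chosen with earlier results of these data known. The scripts ran under Python 3.11.15 with scipy 1.17.1, numpy 2.4.6, pandas 2.3.3 and, for the plots, matplotlib 3.10.9.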

Additional observations from a re-analysis of the deposited data

Results flagged for a closer look

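The 2 mitochondrial peaks of the list, left out of the results above, lay above IgG at 13 h. The peak from 5423 to 6473 held 15.6 RPM in Stat5b against 9.57 in IgG, a ratio of 1.63 (1.22 to 2.20), and that from 10946 to 15726 held 262 against 114, a ratio of 2.30 (2.13 to 2.49). On distinct starts the ratios were 1.88 (1.30 to 2.76) and 1.96 (1.76 to 2.18). Mitochondrial reads numbered 4491 in Stat5b and 1816 in IgG in all.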

How the results depend on the processing

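No paired analysis was possible because each group has 1 library. The ratio of the shares of reads in peaks, 5.66, was 7.07 on distinct starts, 5.597 with 5' ends moved 75 bp downstream, 6.001 with scaling by reads outside the merged regions, 5.58 with 25 bp IgG reads alone, 5.34 with IgG pooled over the stages, 5.29 in the upper 50% of the list by Stat5b reads and 7.52 without the 20 peaks with the most IgG reads. The 7562 peaks called higher became 11750 when the interval had only to lie above 1, 4316 on distinct starts, 4451 with 25 bp IgG reads alone, a control with fewer reads, and 4974 in the upper 50% of the list, which holds fewer peaks. Between 7504 and 9442 were called with the shift, the scaling, the pooled IgG, without the 4 heaped peaks and without the 20 peaks. On distinct starts, in place of all reads, 579 in place of 1044 peaks were called for Stat5b at 8 h and 1768, 1488 and 1916 in place of 3101, 2947 and 3078 for Stat5a at 8 h, 13 h and 2 rounds. IgG at 13 h was then called over IgG at 8 h and 2 rounds in 0 and 1 peaks, in place of 14 and 15. The Stat5b lag was 26 bp on all reads, where repeated starts weigh most, and 97 or 98 bp under the other alternatives. The IgG lag was 120 bp with equal weights and 110 bp without peaks with 10 or more IgG starts. With an overlap of 50% of both peaks required, 33.4%, 28.3%, 21.2%, 42.0% and 0.775% of peaks overlapped the lists of Stat5a at 13 h, Stat5a after 2 rounds, Stat5a at 8 h, Stat5b after 2 rounds and Stat5b at 8 h. In the upper 50% of the list these were 61.3%, 48.6%, 44.8%, 89.7% and 29.3%. Of 150 values of 30 named peaks under alternatives, 148 kept their side of the limit of 2 and, where the main interval excluded 1, their direction. Direction was not scored where the main interval held 1. Among such peaks, the ratio on chromosome 14 at 39187416 was 1.01 on all reads and 0.864 on distinct starts. That on chromosome 11 at 108827662 was 1.05 and 0.922. The ratio on chromosome 2 at 98464401, 0.886 on all reads, was 1.05 (0.968 to 1.14) with 25 bp IgG reads, and the chromosome 11 peak at 3091075 lost its call on distinct starts; the cause was not tested. The settings without the 20 peaks, with equal weights and without peaks rich in IgG were added after the data were seen. Few starts limit the calls of single weak peaks: every peak called higher on distinct starts held at least 10 Stat5b starts. In the weakest class, with 6 to 10 Stat5b starts, 254 of 4256 were called higher on distinct starts. Peaks with 10 starts were split between this class and the middle one.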

Other observations

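Reads mapped without a mismatch were commoner in the Stat5b peaks than elsewhere for Stat5b, and rarer for IgG. They made up 60.3% of Stat5b reads in peaks (heaped peaks left out) and 56.3% of its nuclear reads outside, against 50.6% of IgG reads in peaks and 53.5% outside. These shares give places rich in reads more weight. The 20 peaks with the most IgG reads held 28.5% of the IgG reads in peaks and 4.93% of the Stat5b reads. Their part in the difference was not tested.

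Outside all lists, the ratio of Stat5b to IgG at 13 h also differed among chromosomes 1 to 19 and X, with 0.999 on chromosome 11, the highest, and 0.872 on X, the lowest, around a median of 0.9498. The Y chromosome, covered by reads over 2.73 Mb, stood at 0.813 and was not ranked. Over the other 20 chromosomes the Spearman correlation of the ratio with protein-coding genes per Mb was 0.881, and 0.877 without X, as a description of the same 2 libraries. For Stat5b the same correlation was 0.520 at 8 h and 0.913 after 2 rounds, and for Stat5a it was -0.053 at 8 h, 0.824 at 13 h and -0.392 after 2 rounds. Between IgG libraries it was 0.211 for 13 h over 8 h and -0.562 for 13 h over 2 rounds, so control libraries also differed along chromosomes.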
